A study of Mus musculus with 2 samples.

Results

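The let-7 family was described here through 9 of its precursors, those that lie outside the loci where a let-7 hairpin sits beside miR-99 or miR-100 and miR-125. They are listed as mmu-let-7a-1, mmu-let-7f-1, mmu-let-7d, mmu-let-7f-2, mmu-mir-98, mmu-let-7b, mmu-let-7c-2, mmu-let-7g and mmu-let-7i (mmu- is left out from here on and mir-98 written miR-98), chosen by name out of 1187 precursors (hairpins) with listed read counts, and all 9 were found in both libraries. Small RNA had been sequenced from mouse hindlimb muscle 1 day after the femoral artery had been removed in surgery to make the limb ischemic. The hypercholesterolemic library (HC) came from ApoE-/- mice, which the series' design text places on a high fat diet, and the normocholesterolemic control library (NC) from C57Bl/6 mice with a control genotype. The ischemic surgery and the day of sampling were the same in both, so no uninjured muscle was compared. The labels give no age, no strain for the ApoE-/- mice and no number of mice per library. The question put to the 2 libraries is how miRNA levels in injured muscle change with hypercholesterolemia. Genotype and diet differed together and cannot be told apart.

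let-7 was found as a regulator of developmental timing in the nematode, and its family is deeply conserved. Mature let-7 miRNAs are loaded into Argonaute proteins and repress messenger RNAs that pair with the seed, bases 2 to 8 of the miRNA; Ras genes, Hmga2 and Lin28 are textbook targets. The family is low in stem cells, where LIN28 proteins bind let-7 hairpins and block their maturation, and it is abundant in differentiated adult tissues such as skeletal muscle.

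The 9 hairpins carry 8 different mature sequences on their 5′ arm, shown here because all later comparisons are between them. The seed is in capitals, and the sequences are from RefSeq (GRCm38.p6), which held all 9 hairpins at the coordinates of the files.
let-7a: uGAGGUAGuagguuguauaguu
let-7c: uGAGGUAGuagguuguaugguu
let-7d: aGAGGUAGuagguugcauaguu
let-7b: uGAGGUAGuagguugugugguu
let-7f: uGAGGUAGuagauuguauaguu
let-7g: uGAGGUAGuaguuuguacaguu
let-7i: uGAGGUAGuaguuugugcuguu
miR-98: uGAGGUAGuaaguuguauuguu
All 8 are 22 bases long and share the seed. With positions counted from 1 at the 5′ end and let-7a as the reference, let-7c differs by A19G and let-7f by G12A. let-7b differs by A17G and A19G, let-7d by U1A and U16C, let-7g by G12U and U18C, and miR-98 by G11A and A19U. let-7i is the most distant, with G12U, A17G, U18C and A19U. let-7a and let-7f are thus a single base apart, and so are let-7a and let-7c.

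The precursors fall into 5 loci, 3 of them clusters (coordinates in mm10, annotation from GENCODE M21). let-7a-1 (chr13:48538179-48538272), let-7f-1 (chr13:48537829-48537917) and let-7d (chr13:48536012-48536114) lie on the minus strand in exons of the long noncoding RNA gene 6720427I07Rik. let-7f-2 (chrX:151912346-151912428) and miR-98 (chrX:151913214-151913321) lie 785 bases apart in an intron of Huwe1, which encodes a ubiquitin ligase. let-7c-2 (chr15:85706603-85706697) and let-7b (chr15:85707319-85707403) are 621 bases apart in exons of the noncoding gene Lncppara. let-7g (chr9:106178840-106178927) is alone in an intron of Wdr82, and let-7i (chr10:122985640-122985724) is alone within the pseudogene transcript D630033A02Rik. For 8 of the 9, no precursor of miR-99, miR-100 or miR-125 is on the chromosome; for let-7g the nearest, miR-125b-1, is 64596837 bases away.

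Hairpins with the same mature sequence share reads, which limits what can be said of each locus. The hairpins of let-7f, the member with the most counts, show this, with the shared mature sequence in capitals.
let-7f-1: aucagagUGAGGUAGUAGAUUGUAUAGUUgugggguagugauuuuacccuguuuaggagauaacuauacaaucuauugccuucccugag
let-7f-2: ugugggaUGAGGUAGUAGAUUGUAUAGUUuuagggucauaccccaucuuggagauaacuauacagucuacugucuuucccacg
let-7f-2 held 290667 counts in HC and 510013 in NC, and let-7f-1 held 280386 and 488057. The surplus of let-7f-2 over let-7f-1 was 3.54% of its counts in HC and 4.30% in NC. let-7a-1 exceeded let-7a-2, a hairpin beside miR-100, by 1.04% and 0.968%, and let-7c-2 exceeded let-7c-1, a hairpin beside miR-99a, by 1.33% and 1.61%. The counts of each pair are therefore in effect a single measurement with a small surplus, and the loci of a pair cannot be told apart. Counts sum both arms of a hairpin, so they are not counts of the printed 5′ sequence alone.

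The HC library held 31198050 counts over all precursors and the NC library 43848576. With 1 library per group there is no spread between animals and no test. Intervals are at a nominal level of 95% and cover counting error alone. Levels are in CPM, counts relative to a library size, times 1e6, with the size scaled with the trimmed mean of M-values (TMM); a miRNA read spans the mature miRNA, so counts were not divided by length. The muscle label was set beside the levels of 5 skeletal muscle miRNAs, copies counted once (miR-1a, miR-133a, miR-133b, miR-206 and miR-486a). All were detected, and they summed to 210766 CPM in HC and 256600 CPM in NC, with 1 higher in HC by value and 4 lower. miR-486a made most of that gap, at 141556 and 187306 CPM, while miR-133a-1 stood at 65127 and 65383 CPM and miR-1a-1 at 1826 and 1320 CPM. The 3 leukocyte miRNAs summed to 2266 CPM in HC and 2259 in NC, with log2 folds (HC over NC) of 0.01 for miR-142a, 0.44 for miR-223 and -0.75 for miR-150. Both erythroid miRNAs were higher in HC by value (608.8 and 467.9 CPM in sum), as was the endothelial miR-126a (11407 and 11144 CPM). Both smooth muscle miRNAs were lower (69344 and 76571 CPM in sum), as were 7 of 7 epithelial miRNAs (139.5 and 187.8 CPM) and both neuronal miRNAs, miR-9 and miR-124 (5.63 and 9.13 CPM). The liver miRNA miR-122 had 7 and 9 counts. No listed marker of any cell type was at 0 in either library, so detection alone does not check the muscle label. The directions given for markers are with TMM. Plain totals of precursor counts shift every log2 fold by 0.13, and the denominators of the authors' own scaled column by -0.11. Markers near 0 therefore change side, among them miR-133a-1 (-0.01), miR-206 (-0.09) and miR-145a (-0.06) with plain totals. With the authors' denominators, miR-126a (0.03) does so. The part of these markers in the let-7 differences was not tested. In bulk tissue, fewer cells of a type and less RNA per cell cannot be told apart.

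Among the members, let-7f held the most counts in both libraries. Counts of different sequences were not calibrated to amounts of miRNA in muscle, so ranks and orders here are of counts. In HC, let-7f-2 stood at 8894 CPM (8861 to 8926), rank 18 of all precursors, and in NC at 12185 CPM (12151 to 12218), rank 13. let-7f-1, its copy, stood at 8579 and 11660 CPM. Both copies were lower in HC. A group of 3 miRNAs followed at about the same level in both libraries. let-7c-2 stood at 2976 CPM (2957 to 2995) in HC and 2618 CPM (2602 to 2634) in NC. let-7a-1 stood at 2753 CPM (2735 to 2771) and 2717 CPM (2702 to 2733). let-7i stood at 2711 CPM (2694 to 2729) and 3185 CPM (3168 to 3202). The order of these 3 was let-7c, let-7a, let-7i in HC and let-7i, let-7a, let-7c in NC. Counting intervals of the hairpins named did not overlap within either library. However, let-7a-2, the copy of let-7a-1, stood at 2725 CPM (2707 to 2743) in HC, and its interval overlapped that of let-7i. The spread between animals was not measured, so it is unknown whether so narrow an order would hold in other mice. The remaining members had the same order in both libraries. let-7g was at 1348 CPM in HC and 1481 in NC, and let-7d was at 870.8 and 776.8. let-7b was at 676.2 and 564.0 CPM, and miR-98, the least abundant member, at 264.1 and 289.7. let-7d and let-7b were the higher in HC, let-7g and miR-98 the lower.

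**Figure D1:**
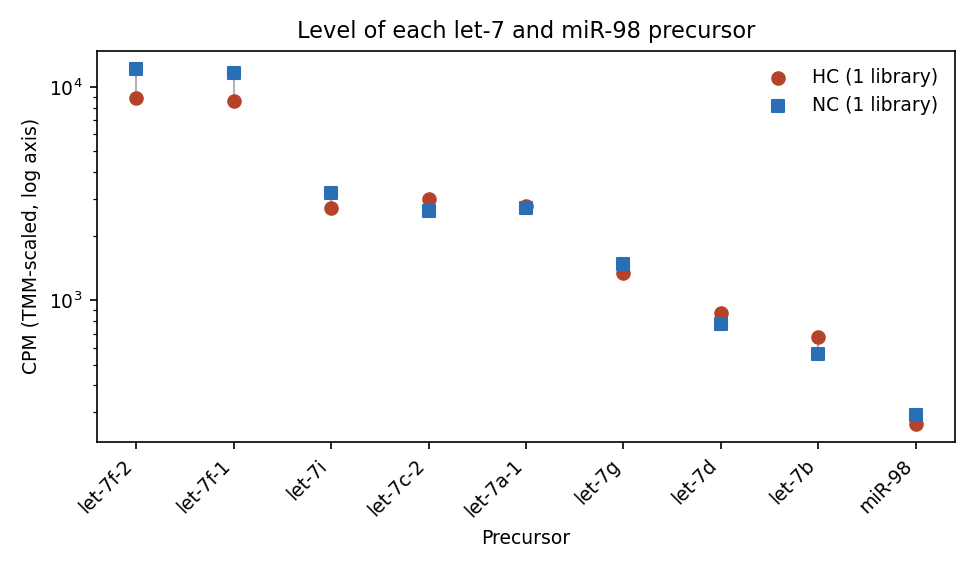
Level of each of the 9 precursors in CPM (TMM-scaled, log axis) in the HC library (circles) and the NC library (squares), 1 library each. The let-7f copies lie highest, at 8579 to 12185 CPM, and miR-98 lowest, at 264.1 and 289.7 CPM.

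Between the libraries, the let-7 family did not move as one: let-7f and let-7i were lower in HC, let-7b, let-7c and let-7d were higher, and no member reached a 2-fold difference. Precursors averaging 10 CPM or more were compared, which 222 precursors and all 9 members passed. By counting intervals that excluded equality, 4 members were higher in HC and 5 lower, against a background of 39.6% higher and 43.7% lower among the 222. The 222 include copies and overlapping hairpins, such as miR-30e and miR-30f with the same counts. Percentages of the 222 therefore hold some measurements more than once. Directions were thus mixed among all compared precursors, and the mix is not particular to let-7. At least 2-fold differences were found for 0 of 9 members and for 2.25% of the 222 (1.35% higher in HC and 0.901% lower). Over the 9 members the median log2 fold (HC over NC) was -0.13, against 0.00 over the 222, and -0.06 with 1 precursor per mature sequence. A member's log2 fold also depends on the scaling. Plain totals raise every log2 fold by 0.13, which puts the median of the 222 at 0.13, and the denominators of the authors' own scaled column shift it by -0.11. Only let-7f-1, let-7f-2 and let-7i were lower in HC, and only let-7b, let-7c-2 and let-7d higher, by intervals excluding equality under all 5 scalings tried. That is 3 of 9 members in each direction, against 24.8% of the 222 precursors higher and 21.2% lower under the same rule. The hairpins let-7f-1 and let-7f-2 share reads and are a single measurement, so the lower members stand for let-7f and let-7i alone.

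let-7f had the largest difference of the members. The log2 fold of HC over NC was -0.45 (-0.46 to -0.45) for let-7f-2 and -0.44 (-0.45 to -0.44) for let-7f-1, that is a 1.37-fold and a 1.36-fold higher level in NC. Of the 222 precursors, 6.31% had a log2 fold as low as that of let-7f-2 or lower. let-7i, transcribed from its own locus, followed at -0.23 (-0.24 to -0.22). let-7g was -0.14 (-0.15 to -0.12) and miR-98 was -0.13 (-0.17 to -0.09); with plain totals both stood at 0.00, so neither has a firm direction. let-7a-1 was 0.02 (0.01 to 0.03), and it was -0.09 with the authors' denominators. let-7d was 0.16 (0.14 to 0.19) and let-7c-2 was 0.18 (0.17 to 0.20). let-7b, the highest, was 0.26 (0.24 to 0.29), a 1.20-fold higher level in HC, and 86.9% of the 222 precursors had a log2 fold as low or lower.

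**Figure D2:**
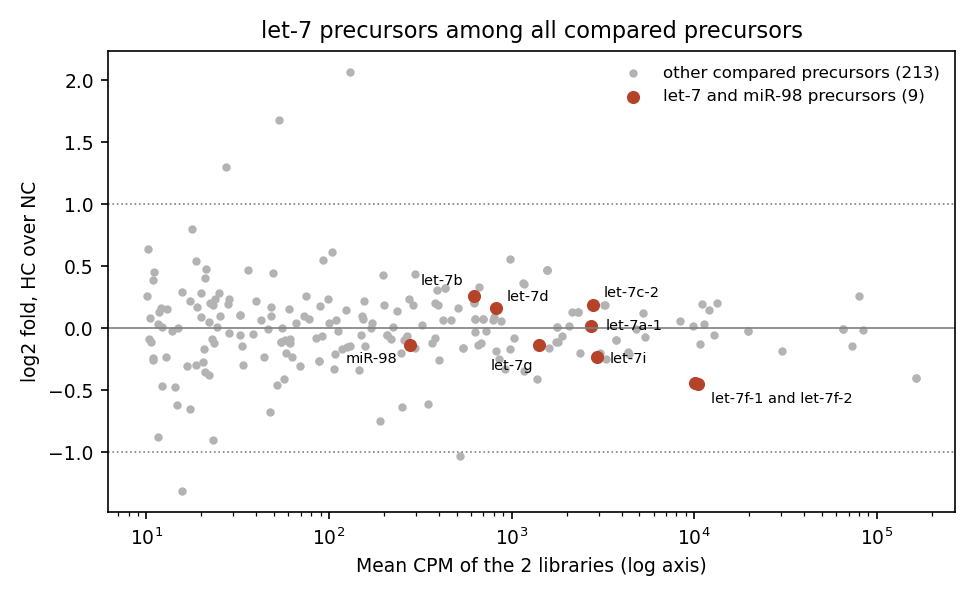
log2 fold of HC over NC against mean CPM (log axis) for the 222 compared precursors, with the 9 let-7 and miR-98 precursors in colour; dotted lines mark a 2-fold difference. All 9 members lie inside the dotted lines, between -0.45 and 0.26.

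**Figure D3:**
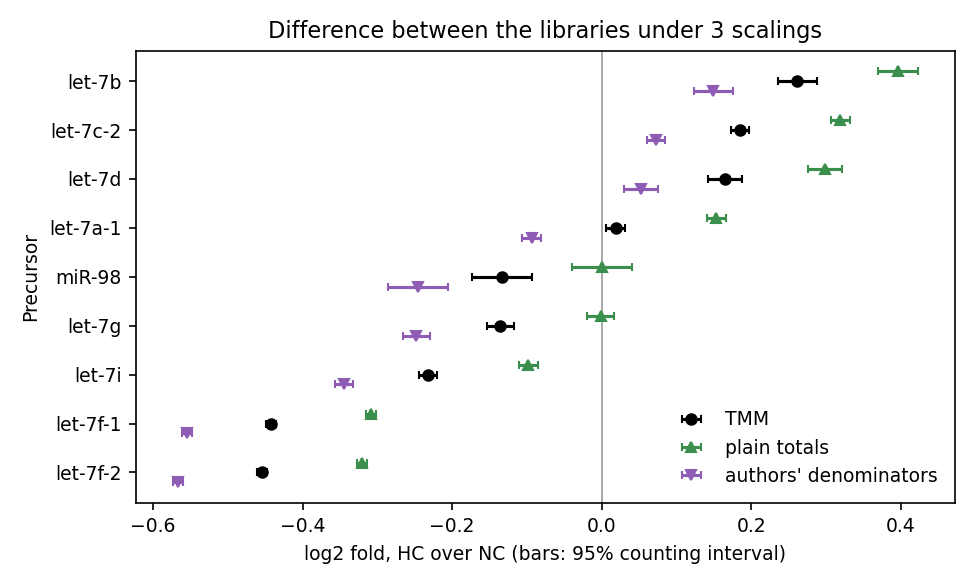
log2 fold of HC over NC for each member with TMM library sizes, with plain totals and with the authors' denominators; bars are 95% counting intervals. The scaling moves all members together, so their order stays while let-7a-1 and miR-98 change sides of 0.

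Members that lie in one cluster can be set side by side, but each cluster holds only 1 member with a hairpin of its own, so differences within a locus were not measured. In the cluster on chromosome 13, let-7a-1, let-7f-1 and let-7d share an annotated host transcript and stood at 0.02, -0.44 and 0.16. In the Huwe1 intron, let-7f-2 was -0.45 and miR-98 was -0.13. let-7c-2 and let-7b, in Lncppara, were close, at 0.18 and 0.26. Reads of let-7a, let-7c and let-7f may come from either of their hairpins, so these values do not belong to 1 locus. The members of the clusters with a single hairpin are let-7d (0.16), miR-98 (-0.13) and let-7b (0.26).

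Summed over the 8 mature sequences, each counted through its most abundant hairpin, the members took 2.15% of all precursor counts in HC, with an exact interval of 2.14 to 2.15%, and 2.27% in NC, with 2.27 to 2.28%. The sum stood at 20493 CPM in HC and 23816 CPM in NC, a log2 fold of -0.22. let-7f made up nearly all of that gap: the sum was 3323 CPM lower in HC and let-7f alone was 3291 CPM lower. Without let-7f, the other 7 sequences summed to 11600 and 11631 CPM, a log2 fold of 0.00 (-0.01 to 0.00). This balance rests on the scaling, since the log2 fold of the 7 was 0.13 with plain totals and -0.12 with the authors' denominators. The sum of all 8 was lower in HC under both as well, at -0.08 and -0.33.

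Shares within the family do not depend on how the libraries are scaled. Here the family is the 8 member sequences and let-7e, whose hairpin lies beside miR-99b and miR-125a. The counts of a sequence are those of its hairpin, both arms included. let-7f made up 43.1% of family counts in HC and 50.8% in NC, an odds ratio of 0.733 (exact interval 0.728 to 0.737). The share of let-7c was 14.4% in HC and 10.9% in NC, and that of let-7a 13.3% and 11.3%. For let-7i it was 13.1% and 13.3%, the only other share that was lower in HC, with an odds ratio of 0.987 (0.978 to 0.996), which with copies summed was 0.998 (0.989 to 1.01) and held equality. let-7g had 6.53% and 6.17%, let-7d 4.22% and 3.24%, and let-7b 3.28% and 2.35%. miR-98 had 1.28% and 1.21%, and let-7e 0.722% and 0.686%. In odds, let-7b differed most in the other direction, at 1.41 (1.38 to 1.43), followed by let-7c at 1.37 (1.36 to 1.39) and let-7d at 1.32 (1.29 to 1.34). The share of let-7f in HC minus that in NC was -7.73 percentage points, and 7 of the other 8 sequences took a larger share there. The shares themselves depend on how copies are counted. With copies summed, let-7f made up 50.1% in HC and 58.3% in NC, and let-7i 7.77% and 7.79%. Shares of one family are tied to each other: where the largest is lower, the rest must be higher in sum. Set against let-7a, from which it differs only by G12A, let-7f had 3.23 counts per let-7a count in HC (3.21 to 3.25) and 4.48 in NC (4.46 to 4.51). let-7c, which differs from let-7a only by A19G, had 1.08 and 0.963. The intervals cover counting error alone, and reads assigned between such near sequences were not measured.

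**Figure D4:**
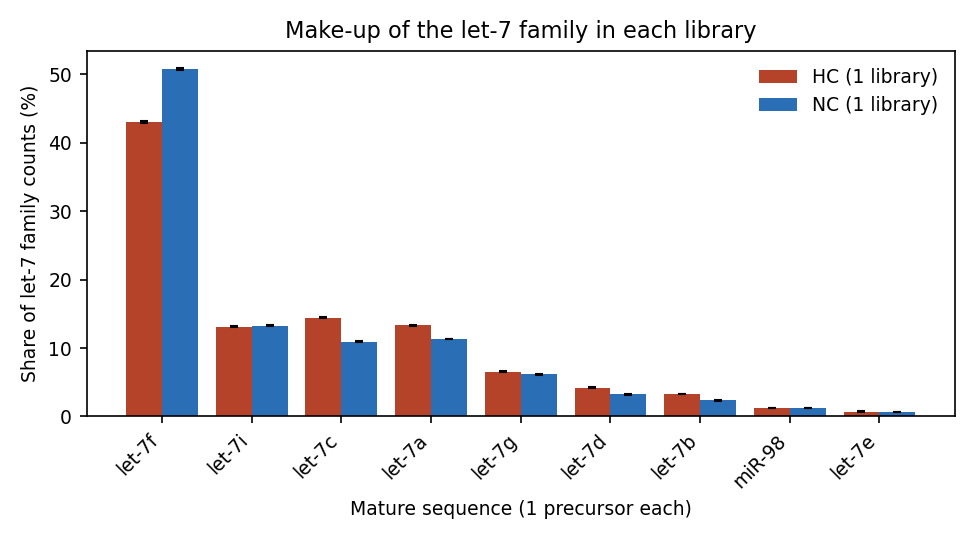
Share of let-7 family counts in percent for 9 mature sequences, each counted through 1 hairpin, in the HC and NC libraries; bars start at 0 and whiskers are exact 95% counting intervals. let-7f takes 43.1% in HC and 50.8% in NC, and let-7c and let-7a take larger shares in HC.

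The sequences printed above split by bases 11 and 12, a pattern chosen after the values were seen. The 4 sequences with GG there, let-7a, let-7b, let-7c and let-7d, had log2 folds from 0.02 to 0.26. The 4 with another base at one of them, let-7f (G12A), let-7g and let-7i (both G12U) and miR-98 (G11A), had log2 folds from -0.45 to -0.13. The ranges did not overlap, but the bases were picked with these values in view, so this lends the split no support. let-7e, which is no member and differs from let-7a by U9G, also has GG at these bases. It stood at -0.14, inside the range of the 4 sequences without GG. Base content is not separate from this split. Bases 11 and 12 count towards it, and each of the 4 sequences with another base there lost a G. The 4 sequences with other bases have 31.8% to 40.9% G and C, and the 4 with GG have 36.4% to 45.5%. Across the 8 sequences, the log2 fold correlated with the percentage of G and C with r = 0.75 and rho = 0.68, as a description of 8 points that share 2 libraries and most of their bases. With let-7e added (9 sequences), r was 0.70 and rho 0.53, and with the hairpins of the 9 members in place of the mature sequences, r was 0.48 and rho 0.42. Across 184 compared precursors outside the family with a RefSeq hairpin, the log2 fold and the G and C content of the hairpin had r = -0.19 and rho = -0.16. With the mean G and C content of their annotated mature sequences (195 precursors), r was -0.05 and rho was -0.18. The part of base content in the let-7 values was not tested.

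**Figure D5:**
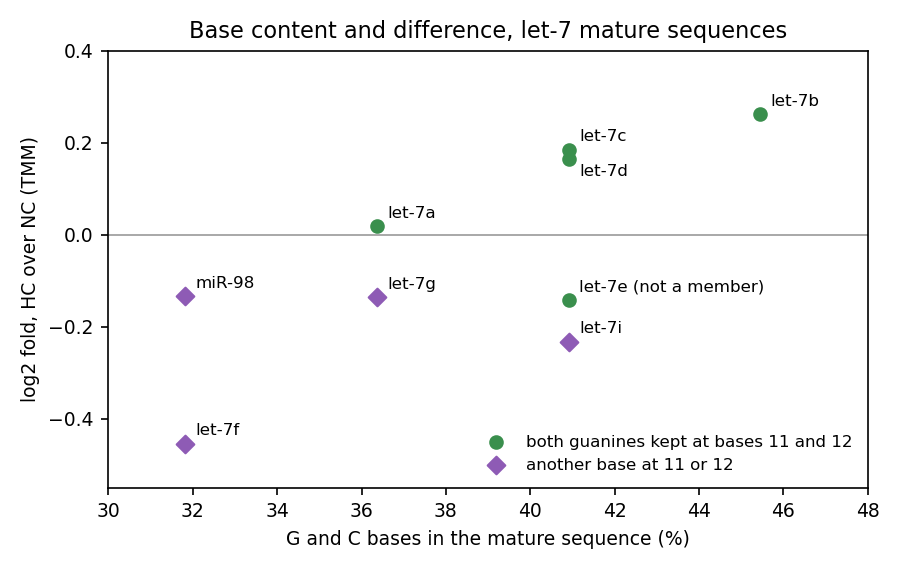
log2 fold of HC over NC (TMM) against the percentage of G and C bases for 9 mature let-7 sequences; circles keep both guanines at bases 11 and 12 and diamonds do not. The 4 diamonds lie at or below -0.13, and the 4 circles of members lie above 0, with let-7e, from the locus beside miR-99b, at -0.14.

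LIN28 recognises GGAG in the 3′ part of the hairpin loop. These letters were searched on the hairpin's own strand and found in 6 of the 9 members, let-7a-1, let-7d, let-7f-1, let-7f-2, let-7g and let-7i, and not in let-7b, let-7c-2 or miR-98. For contrast, let-7g holds them (in capitals) and let-7c-2 does not.
let-7g: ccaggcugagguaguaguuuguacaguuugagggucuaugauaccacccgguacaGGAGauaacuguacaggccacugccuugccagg
let-7c-2: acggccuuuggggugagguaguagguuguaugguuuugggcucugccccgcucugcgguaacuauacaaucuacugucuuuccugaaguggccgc
GGAG occurred in 34.7% of 196 compared precursors with a RefSeq hairpin, which differ in length, so a match is a description of letters only. The 3 members without it stood at 0.26 (let-7b), 0.18 (let-7c-2) and -0.13 (miR-98), and the 6 with it ranged from -0.45 to 0.16. The 2 ranges overlap.

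The let-7 hairpins beside miR-99 or miR-100 and miR-125 were close to the members with the same sequence, whose reads they share. let-7a-2 was at 2725 CPM in HC and 2691 in NC (log2 fold 0.02), and let-7c-1 at 2937 and 2576 CPM (0.19). let-7e, the only one with a sequence of its own, was at 149.1 and 164.4 CPM (-0.14, -0.19 to -0.09). Their 6 neighbours had a median log2 fold of -0.03. miR-100, at 739.0 and 586.4 CPM, was the highest at 0.33, and miR-125a, at 765.6 and 872.3 CPM, the lowest at -0.19. miR-99a was 0.07, miR-99b -0.07, miR-125b-1 -0.04 and miR-125b-2 -0.03. Their range of -0.19 to 0.33 overlapped that of the members, so the members were not set apart from them.

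Other listed precursors with let-7 names or the same seed hardly contributed. let-7j held 136 counts in HC and 238 in NC, 4.16 and 5.69 CPM, below the 10 CPM limit. let-7k had 0 and 2 counts and miR-1961, which shares the seed GAGGUAG, 5 and 1. miR-202, a distant relative of the family, had 0 and 1. A count of 0 allows up to 3 counts, so no difference in let-7k or miR-202 was detectable at this depth.

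With copies and overlapping hairpins taken once, the 3 miRNAs outside the family that lay nearest to let-7f-2 in log2 CPM over the 2 libraries were miR-378a (distance 0.24, 10232 CPM in HC and 11199 in NC), miR-126b (0.35, 9903 and 9804 CPM) and miR-181a-1 (0.47, 11742 and 10288 CPM). miR-126a, whose hairpin overlaps that of miR-126b, was left out for this reason (11407 and 11144 CPM, log2 fold 0.03). The log2 folds of the 3 were -0.13, 0.01 and 0.19, against -0.45 for let-7f-2. They were near in level, by choice, but none of them had its difference between the libraries. The same levels gave both the choice and the folds, so this is a description only. Of the 222 compared precursors, 6.31% had a log2 fold as low as that of let-7f-2 or lower.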

How the data were processed

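The labels' protocols give Trizol and mirVana extraction and TruSeq small RNA libraries. CASAVA 1.8.2, TopHat2 2.0.10, HTSeq 0.5.4 and mm10 are named in the submitters' processing notes; how reads were trimmed, and how those with several alignments were listed, these notes do not say. The authors deposited whole-number read counts per miRNA precursor, which sum both arms. Reads outside precursors, 55.9% (HC) and 44.1% (NC) of listed counts, stayed out of library sizes. A second deposited column, headed RPM, is a scaled signal, the count over 27222821 (HC) or 32252170 (NC); it gave only an alternative scaling. Library sizes were scaled by TMM (edgeR 4.0.16, R 4.3.3; no edgeR test). log2 folds carry no pseudocount and have exact conditional binomial intervals; shares have Clopper-Pearson intervals and odds ratios conditional exact intervals (Python 3.11.15, scipy 1.17.1). Because reads carried no molecular identifiers, they need not be independent molecules, and intervals cover counting error only. In let-7 and marker sums and in let-7 family shares, a mature sequence with more than 1 hairpin was counted once, through the hairpin with the most counts; library totals hold every precursor, copies included. All members were named, with the cluster let-7 hairpins, their neighbours, and the 3 nearest miRNAs in level from distinct sets of copies. Members and lists were chosen with earlier results of these data known. The alternatives were other scalings, other CPM limits, and copies counted once or summed.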

Additional observations from a re-analysis of the deposited data

Results flagged for a closer look

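Counts outside all precursors made up 55.9% of all counts listed for HC and 44.1% of those for NC. They entered no comparison and are given because the share in HC was above that in the control.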

How the results depend on the processing

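With 1 library per group, the spread between animals is unknown, and depth limits only the rarest relatives. No member reached 2-fold under any of the 8 alternatives to TMM, the 10 CPM limit and the separate counting of precursors. The median log2 fold of the members was -0.13, became 0.00 (above 0 by 0.00052) with plain totals, was -0.25 with the authors' denominators, and was -0.057 both with 1 precursor per mature sequence and with copies summed. By counting intervals, 5 members were lower in HC and 4 higher; this was 3 and 4 with plain totals, 6 and 3 with the authors' denominators, and 4 and 4 with 1 precursor per mature sequence or copies summed. With plain totals miR-98 was 0.00 (0.00052), and with the authors' denominators let-7a-1 was -0.093. The let-7 share of counts, 2.15% in HC and 2.27% in NC, was 3.05% and 3.39% with copies summed, and 8.75% and 10.1% when the 10 most abundant precursors were left out of the total; it was lower in HC each time. 7 of 9 mature sequences had a larger share of the family in HC, also with copies summed, and 6 of 8 within the members alone. No paired analysis was possible because each group holds 1 library.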
